A study of Homo sapiens with 12 samples.

Results

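The genes described here are 47 interferon-stimulated genes, a curated set that cells switch on when interferon reaches them. They were picked by gene symbol, and all 47 were found among the 26535 features of the count table. Expression was high enough for testing in 46 of them. EPSTI1, an epithelial-stromal interaction gene, was the exception, with 12 counts in 1 A549 library, 5 in 1 H1299 library and 0 in the other 10.

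Interferons are secreted proteins that a cell releases when its sensors meet foreign or misplaced nucleic acid. Type I and type III interferons bind separate receptors, and the kinases JAK1 and TYK2 then activate transcription factors, among them STAT2, which joins IRF9 in the complex ISGF3. ISGF3 binds a DNA element called the interferon-stimulated response element (ISRE) in front of genes whose products block viral entry, translation and replication. Interferon gamma acts through JAK1 and JAK2 and reaches its genes at a different element, the gamma-activated site (GAS). Many tumour lines keep some of this program running without added interferon.

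RNA was sequenced from 2 established human non-small-cell lung cancer lines, A549, grown in DMEM/F12 medium, and H1299, grown in RPMI-1640, both with fetal bovine serum and antibiotics. Each line carried either a lentiviral vector that overexpresses VGF, a gene for a secreted neuroendocrine peptide precursor, or an empty lentiviral vector, which gives 4 groups of 3 libraries. No group without a vector and no interferon-treated group was part of the comparisons, and the labels do not say whether a line was 1 clone or a pool. Groups follow the sample titles, because the free-text treatment note names the empty vector for every library. The line and its medium cannot be told apart, and in bulk RNA fewer expressing cells and less RNA per cell cannot be told apart either.

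Library totals were between 31378171 and 41919484 counts. VGF itself read 2.74, 2.54 and 2.01 CPM (counts scaled to a common library total with TMM factors) in A549 with empty vector and 1361, 1201 and 1287 with the VGF vector. In H1299 it read 77.2, 90.5 and 89.0 with empty vector and 886, 941 and 1114 with the VGF vector, so the labels and the transgene go together in all 12 libraries. Of the 6 epithelial markers checked, keratins 8 and 18 were high in both lines, while CDH1 had 2653 to 3190 counts per A549 library and 0 in every H1299 library. With empty vector KRT7 averaged 1051 CPM in A549 and 1.21 in H1299, and KRT19 averaged 3.77 and 0.530. EPCAM was low in both lines, at 0.584 CPM in A549 and 0.364 in H1299. The second A549 library with VGF stood apart: its 12 endothelial markers summed to 460.9 CPM against 76.1 to 93.2 in the other 5 A549 libraries, and all 12 were higher there than in any of those 5. PECAM1 had 3305 counts there and 19 to 61 in the others, TEK 300 against 0 to 2, and PTPRC, the pan-leukocyte marker, 0. The genes that it moved most are given with and without it. Without it, 0 of 46 genes were called by edgeR for VGF in A549 and 45 between the lines in the VGF libraries. Of the 18694 features tested without it, 51 were called higher and 45 lower for VGF in A549. Between the lines in the VGF libraries, 7044 of them were called higher and 6888 lower. CPM values below are per library in the order of the replicate numbers, group values are means ± SD of 3 libraries, log2 fold changes carry their standard error (SE), and p-values measure only the spread between libraries.

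Promoter sequences of the group were searched for both elements. RefSeq promoters (GRCh38.p14, 250 bases before to 50 bases after a start) were available for 37 of the 47 genes. The ISRE core, searched as GAAANNGAAA on both strands (TTTCNNTTTC on the reverse), was present in 25 of the 37, or 67.6%, against 4.38% of all 27305 genes with a promoter. The GAS core, searched as TTCNNNGAA, which reads the same pattern on both strands, was present in 12 of 37, or 32.4%, against 9.38% of all genes. A match describes letters and shows no binding. The 30-base windows below, 5′ to 3′ on the gene's strand with each ISRE core in capitals, are shown because these 8 genes span the range from the strongest line difference to the single gene that went the other way. ISG15 (chr1:1013377-1013406, plus strand, 120 to 91 bases upstream) holds 2 overlapping cores, IFIT1 (chr10:89392503-89392532, plus, 120 to 91 upstream) holds 2 separate ones, and so does IFITM3 (chr11:320885-320914, minus, 54 to 25 upstream). The others hold 1 each: RSAD2 (chr2:6877622-6877651, plus, 155 to 126 upstream), IFIT3 (chr10:89332468-89332497, plus, 61 to 32 upstream), LGALS3BP (chr17:78979962-78979991, minus, 68 to 39 upstream), OAS3 (chr12:112938444-112938473, plus, 30 to 1 upstream) and DDX60 (chr4:168318786-168318815, minus, 63 to 34 upstream).
RSAD2: ctgtttcaacTTTCAGTTTCacatgtggaa
LGALS3BP: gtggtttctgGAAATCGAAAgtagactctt
IFIT3: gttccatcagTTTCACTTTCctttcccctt
IFIT1: ttagTTTCACTTTCcccTTTCGGTTTCcct
OAS3: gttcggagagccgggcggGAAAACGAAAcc
DDX60: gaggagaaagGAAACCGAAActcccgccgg
ISG15: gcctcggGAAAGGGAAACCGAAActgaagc
IFITM3: agGAAAAGGAAActgttgaGAAACCGAAAc

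The first comparison asked how the 2 lines differ at baseline, with empty vector only. Interferon-stimulated genes were lower in H1299 than in A549 almost throughout. At an adjusted p under 0.05 in edgeR's quasi-likelihood test, 42 of the 46 tested genes were lower in H1299, 1 was higher (IFITM3) and 3 were not called (STAT2, IRF7 and IFI16). Among all 18228 features tested, 38.6% were called lower and 38.5% higher. The median log2 fold change of the 46 genes was -2.83, against 0.01 for all features, and 34 of them were lower by at least 2-fold and 22 by at least 8-fold. The share of all features beyond these folds was not counted. Large differences were common, with a median absolute log2 fold change of 0.97 over all features, against 2.83 for the 46 genes. In 41 genes every H1299 library was below every A549 library, and in 1 every H1299 library was above, against 40.3% and 40.7% of all features. Of the 46, 11 genes passed the expression limit through A549 libraries alone, so the filter made lower readings in H1299 likely. They were OAS1, OAS2, OASL, MX1, MX2, RSAD2, CMPK2, BST2, IFI44L, XAF1 and TRIM22, and they also enter the fold and overlap counts above. Among the 35 that reached the limit in both lines, 31 were lower, 1 was higher and 3 were not called. The genes together took 0.227% to 0.245% of all counts in the A549 libraries with empty vector and 0.0502% to 0.0525% in those of H1299.

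**Figure D1:**
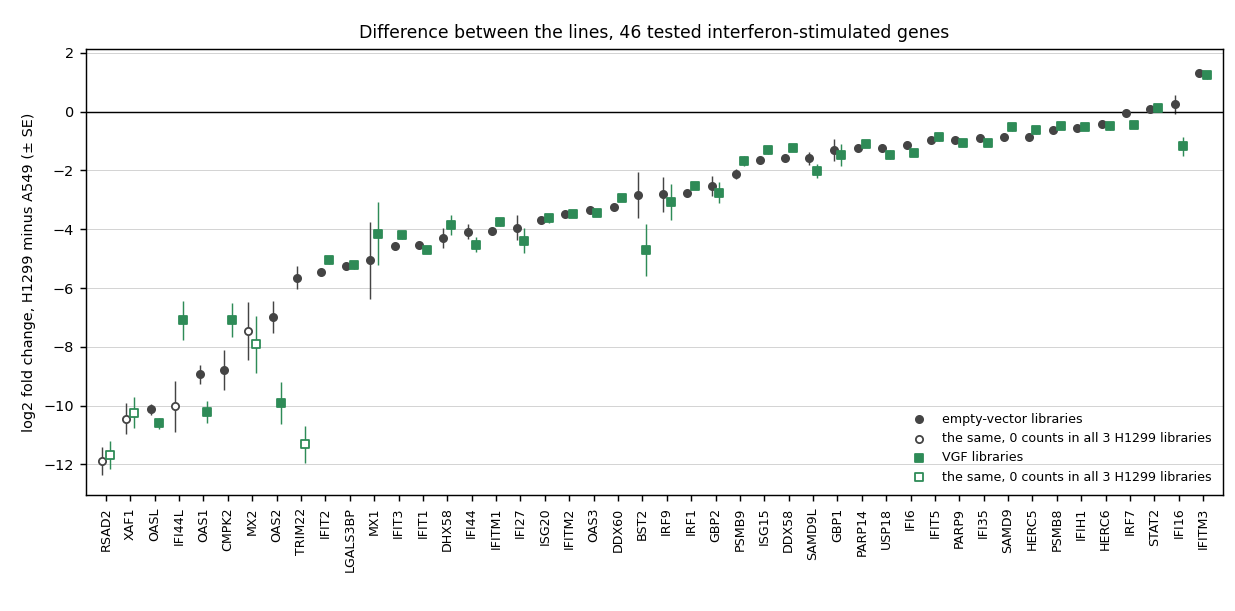
Log2 fold change of each of the 46 tested genes, H1299 minus A549, with its SE, in the libraries with empty vector (grey circles) and in those with VGF (green squares); open symbols mark genes with 0 counts in all 3 H1299 libraries. IFITM3 lies above 0 at 1.31, STAT2, IRF7 and IFI16 lie near 0 in the empty-vector libraries, and the median is -2.83.

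The 6 libraries with VGF give the same comparison in samples that the first one did not use. In them 44 of 46 genes were lower in H1299 and 1 was higher, against 39.1% and 38.2% of all features, and the median was -2.999 against -0.01 for all features. Those 46 include the 11 genes that passed the expression limit through A549 alone, whose lower readings the filter made likely here too. The spread was estimated from all 12 libraries, so these calls are not independent of the first ones. The direction was the same in both sets of libraries for 45 of the 46 genes, compared with 93.4% of all features. The exception was IFI16, at 0.26 (SE 0.32) with empty vector and -1.18 (SE 0.32, adjusted p 0.00476) with VGF. Without the second A549 VGF library, the one that stood apart, IFI16 was at -0.51 (adjusted p 0.0168), and its call was lost on log2(FPKM + 1), at an adjusted p of 0.0671 by limma.

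**Figure D2:**
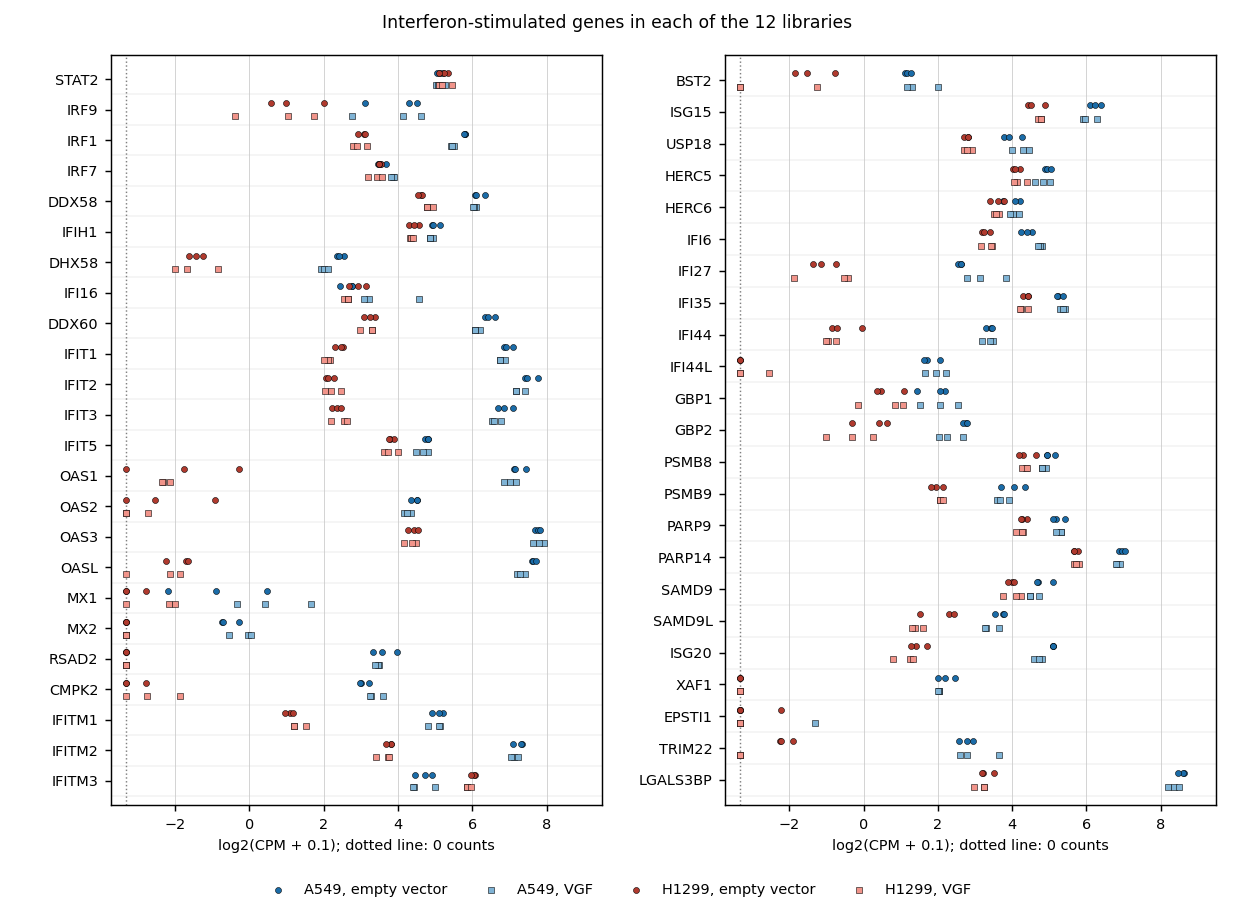
Level of each of the 47 genes in each library as log2(CPM + 0.1), with 1 marker per library and the 4 groups told apart by colour and shape; the dotted line marks 0 counts. RSAD2, XAF1 and MX2 have 0 counts in all 6 H1299 libraries, while IFITM3 is the gene whose H1299 markers all lie above its A549 markers.

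Among the transcription factors, IRF1 and IRF9 were lower in H1299 and STAT2 and IRF7 were not called. IRF1, an activator induced mainly by interferon gamma (chr5:132481609-132490798, minus strand), read 55.8, 55.8 and 55.0 CPM in A549 and 8.38, 7.46 and 8.58 in H1299. The lines did not overlap, and the log2 fold change was -2.77 (SE 0.09, adjusted p 1.72e-11, edgeR). Of IRF1's exonic bases 22.0% overlap genes on the opposite strand, and the strand setting of the counting is not given in the sources used here. IRF9, the DNA-binding part of ISGF3, averaged 16.9 ± 7.38 CPM in A549 and 2.40 ± 1.32 in H1299, but 48.4% of its exonic bases belong also to another gene on its strand, so its level is uncertain.

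STAT2, the ISGF3 subunit, read 34.7, 33.3 and 37.0 CPM in A549 and 40.5, 37.6 and 34.1 in H1299. Its ranges overlapped and the lines differed by 0.10 on the log2 scale (SE 0.10, adjusted p 0.384). Its call depended on scaling: with library totals alone it was called higher in H1299, at 0.30 and an adjusted p of 0.0112. IRF7, which amplifies interferon production, averaged 11.6 ± 0.981 CPM in A549 and 11.3 ± 0.283 in H1299. In the VGF libraries IRF7 was lower in H1299 at -0.45 (adjusted p 0.00335), a call that was lost with library totals alone (adjusted p 0.0734).

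The sensors of foreign nucleic acid were lower in H1299 in 4 of 5 cases, against 38.6% of all features called lower. DDX60, a helicase of the RNA-sensing system (chr4:168216293-168318807, minus strand), read 81.0, 86.1 and 97.2 CPM in A549 and 10.3, 9.37 and 8.39 in H1299, a 9.44-fold difference (log2 -3.24, SE 0.11, adjusted p 1.27e-11). DDX58, which encodes the viral RNA sensor RIG-I, read 67.5, 68.8 and 80.5 CPM in A549 and 24.4, 25.0 and 22.9 in H1299 (log2 -1.58, SE 0.07). Neither gene's libraries overlapped between the lines. DHX58, which encodes the regulatory sensor LGP2, was 19.8-fold lower in H1299, and IFIH1, which encodes the long double-stranded RNA sensor MDA5, was 1.47-fold lower. IFI16, a DNA sensor, read 6.72, 6.72 and 5.35 CPM in A549 and 6.35, 8.73 and 7.44 in H1299, with overlapping ranges and no call (adjusted p 0.471).

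The IFIT proteins bind viral RNA and block its translation. All 4 of their genes were lower in H1299, against 38.6% of all features called lower. IFIT2 (chr10:89283694-89309276, plus strand) read 172, 177 and 218 CPM in A549 and 4.03, 4.22 and 4.79 in H1299, a 43.4-fold difference (log2 -5.44, SE 0.14, adjusted p 1.37e-12). IFIT3 read 103, 115 and 136 CPM against 4.55, 4.99 and 5.37, a 23.8-fold difference, and IFIT1 read 115, 120.2 and 136 against 5.64, 5.40 and 4.86, a 23.3-fold difference. Every A549 library of these 3 genes was far above every H1299 library. IFIT5 differed less, at 27.4 ± 1.01 against 14.0 ± 0.756 CPM (1.96-fold).

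The OAS enzymes make the messenger that activates RNase L, which cuts viral and cellular RNA. All 4 OAS genes were lower in H1299, against 38.6% of all features, with a median log2 fold change of -7.96. However, OASL, OAS1 and OAS2 passed the expression limit through A549 libraries alone, which made lower readings likely and leaves OAS3. OASL, the family member without that enzyme activity (chr12:121019111-121039242, minus strand), read 194, 198 and 209 CPM in A549 and 0.111, 0.204 and 0.219 in H1299, a 1124-fold difference (log2 -10.12, SE 0.19, adjusted p 1.1e-13). OAS1 (chr12:112906777-112933222, plus strand) read 139.7, 142 and 174 CPM against 0, 0.726 and 0.194, a 495-fold difference. OAS2 read 22.5, 20.2 and 22.7 CPM against 0, 0.431 and 0.0729, a 129.9-fold difference. OASL, OAS1 and OAS2 were thus close to undetected in H1299. With so few H1299 reads the size rests on single libraries: the log2 fold change of OAS1, -8.93 in all libraries, was -8.33 without H1299 library 1 and -10.6 without library 2, and that of OAS2, -6.99, was -6.39 and -9.15. OAS3 was not: it averaged 218 ± 10.2 CPM in A549 and 21.3 ± 1.98 in H1299, a 10.2-fold difference.

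RSAD2 and CMPK2 lie next to each other on chromosome 2. RSAD2 encodes viperin, which makes a chain-terminating nucleotide, and CMPK2 a mitochondrial nucleotide kinase. RSAD2 (chr2:6865806-6898239, plus strand) read 9.98, 11.7 and 15.5 CPM in A549 and 0 counts in every H1299 library. Set against a floor of 3 counts over the H1299 group, RSAD2 was at least 538-fold lower there. CMPK2 read 7.89, 7.73 and 9.17 CPM against 0, 0.0454 and 0, a ratio of 537 with a counting interval of 148 to 4443 (exact binomial, 95%, counting error only). The Mx genes, for GTPases that trap viral particles, were low in both lines. MX1 read 0.437, 1.28 and 0.120 CPM in A549 against 0.0446, 0 and 0 in H1299, a ratio of 39.9 (interval 10.6 to 336.7), and its call was lost on log2(FPKM + 1), at an adjusted p of 0.261 by limma. Its log2 fold change of -5.05 was -3.92 without A549 library 2 and -7.53 without H1299 library 1, while that of CMPK2, -8.79, was -11.3 without H1299 library 2. MX2 read 0.495 to 0.722 CPM in A549 and 0 counts in H1299, at least 24.9-fold lower. RSAD2, CMPK2, MX1 and MX2 all passed the expression limit through A549 libraries alone, so the filter made their lower readings in H1299 likely.

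The IFITM genes encode membrane proteins that hinder viral fusion, and here the members split. IFITM3 (chr11:319669-327537, minus strand) read 30.3, 26.2 and 22.0 CPM in A549 and 66.6, 65.7 and 62.2 in H1299. Every H1299 library was above every A549 library, a 2.48-fold difference (log2 1.31, SE 0.14, adjusted p 1.79e-06). IFITM2 went the other way, at 152 ± 13.5 CPM in A549 and 13.4 ± 0.658 in H1299 (11.3-fold lower), as did IFITM1, at 33.5 ± 3.36 against 2.02 ± 0.166 (16.6-fold lower). These 3 genes share sequence: 32.0% of the 50-base stretches of IFITM1, 34.1% of IFITM2 and 17.4% of IFITM3 occur in other genes. IFITM1 and IFITM2 are also annotated to some of the same exonic bases, 32.5% of IFITM1's and 22.75% of IFITM2's. How much of the shared stretches comes from that overlap was not counted. Reads could be split between the 3 genes, and their single levels are uncertain. The opposite directions of IFITM3 and IFITM2 held under each scaling tried, which cannot show how reads were split between them. Of IFITM3's exonic bases 21.3% also overlap a gene on the opposite strand, and the strand setting is not given. BST2, which encodes tetherin, a protein that holds budding virus at the cell surface, averaged 2.19 ± 0.143 CPM in A549 and 0.305 ± 0.161 in H1299.

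ISG15 is a ubiquitin-like protein, HERC5 attaches it, HERC6 is a related ligase, and USP18 removes it and dampens receptor signalling. All 4 genes were lower in H1299, against 38.6% of all features called lower. They differed by less than the OAS and IFIT genes, with a median log2 fold change of -1.04. ISG15 (chr1:1001138-1014540, plus strand) read 68.4, 75.7 and 83.7 CPM in A549 and 29.5, 21.5 and 22.6 in H1299, without overlap (3.10-fold lower). USP18 averaged 15.9 ± 2.96 CPM in A549 against 6.76 ± 0.256 in H1299, and HERC5 30.8 ± 1.74 against 17.1 ± 1.02. HERC6 was nearest to the threshold, at 13.5, 18.3 and 16.8 CPM in A549 against 13.5, 10.5 and 12.1 in H1299, with the ranges touching (adjusted p 0.0101). Its call was lost with library totals alone (adjusted p 0.16), without A549 empty-vector library 2 (0.0659) and without H1299 empty-vector library 2 (0.0509).

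The remaining tested genes were lower in H1299 in every case, against 38.6% of all features called lower. They include IFI44L, XAF1 and TRIM22, which passed the expression limit through A549 libraries alone. Of the 5 small IFI genes, IFI27, a mitochondrial protein gene, was 15.6-fold lower and IFI44 17.1-fold lower. IFI44L was read at 3.14 to 4.09 CPM in A549 and 0 counts in H1299 (at least 148-fold lower). IFI6, an anti-apoptotic gene, and IFI35 differed by 2.18-fold and 1.86-fold. The guanylate-binding protein genes GBP1 and GBP2, which are targets of interferon gamma, were 2.48-fold and 5.81-fold lower, and the immunoproteasome subunit genes PSMB8 and PSMB9 1.55-fold and 4.34-fold lower. PARP9, PARP14, SAMD9 and SAMD9L differed by 1.80-fold to 2.99-fold.

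Among the other effectors, LGALS3BP, a secreted glycoprotein gene (chr17:78971238-78980109, minus strand), read 394, 391 and 351 CPM in A549 and 9.25, 11.3 and 8.99 in H1299. The lines were far apart, a 38.4-fold difference (log2 -5.26, SE 0.11, adjusted p 3.55e-13). TRIM22, an antiviral ubiquitin ligase gene (chr11:5689689-5737089, plus strand), read 5.88, 7.61 and 6.73 CPM in A549 and 0.111, 0.113 and 0.170 in H1299, a 51.2-fold difference. XAF1, a pro-apoptotic gene, read 3.93 to 5.41 CPM in A549 and 0 counts in H1299 (at least 199-fold lower), with 38.3% of its exonic bases overlapped by genes on the opposite strand. ISG20, a 3′ to 5′ exonuclease gene, was 12.9-fold lower.

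The order of levels within a line also differed, judged per length by the deposited FPKM values in the libraries with empty vector. In A549 the highest was IFITM2, at 161 ± 6.62 FPKM, followed by LGALS3BP at 146 ± 6.55 and ISG15 at 105 ± 10.8. The libraries of IFITM2 and LGALS3BP did not overlap, nor did those of LGALS3BP and ISG15, while ISG15 overlapped with OAS1, the fourth at 83.0 ± 10.3. In H1299 IFITM3 led at 82.6 ± 4.48 FPKM, ahead of ISG15 at 38.4 ± 6.76, and LGALS3BP was not among the first 5.

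Genes with and without an ISRE core in the promoter window both tended to be lower in H1299. The median log2 fold change was -3.04 for the 24 tested genes with a core and -1.85 for the 12 without one, a description with no test. IFITM3, the gene that was higher in H1299, carries 2 cores in the window printed above. STAT2 and IFI16, which were not called, have none in their windows, and OAS1, one of the most different genes, has none either.

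The rest of the pathway was followed through 104 further genes, of which 81 could be tested. With empty vector 55 of these were lower in H1299, 19 were higher and 7 were not called, against 38.6% lower and 38.5% higher among all features, and the median log2 fold change was -1.05 against 0.01. Of the 81, 14 passed the expression limit through A549 libraries alone, and among the other 67, 42 were lower, 19 higher and 6 not called. For the interferon genes themselves, 5 of 21 could be tested and all 5 were lower in H1299. However, IFNB1, IFNL1, IFNL2 and IFNL3 passed the limit through A549 alone, which made lower readings likely and leaves IFNE. IFNB1, the type I interferon beta gene, had 60, 62 and 58 counts in A549 and 0, 0 and 2 in H1299, a ratio of 115.8 (interval 31.6 to 963.5). IFNL1, a type III interferon gene, read 7.92, 8.27 and 7.13 CPM in A549 and 0, 0.0454 and 0 in H1299. IFNB1 and IFNL1 were thus read in every A549 library with empty vector, and each in a single such library of H1299. IFNL2 and IFNL3 had 0 counts in all H1299 libraries and were at least 283-fold and 289-fold lower, and since these type III genes are near-identical paralogs their separate levels are uncertain.

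The receptors and kinases differed in both directions, with 3 of 9 higher in H1299 and 4 lower, near the 38.5% and 38.6% of all features, all between -1.07 and 0.99 on the log2 scale. IFNAR1, a type I receptor chain, averaged 48.2 ± 3.14 CPM in A549 and 64.1 ± 2.51 in H1299 (log2 0.41), whereas its partner IFNAR2 averaged 45.6 ± 2.27 and 21.8 ± 1.16 (log2 -1.07). Of IFNAR2's exonic bases 44.2% belong also to another gene on its strand and 39.1% overlap a gene on the opposite strand, so its level is uncertain. IFNGR2 and TYK2 were higher in H1299, at 0.77 and 0.99 on the log2 scale, and IFNGR1, JAK1 and JAK2 were lower, at -1.06, -0.62 and -0.98. IFNLR1 and IL10RB, the type III receptor chains, were not called (adjusted p 0.515 and 0.959). IL10RB's level is uncertain too, since 38.1% of its exonic bases belong also to another gene on its strand. IRF3, the factor that switches on interferon genes, was lower by a small amount, at -0.40, and IRF5 was 21.4-fold lower.

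Among the sensing adaptors, 5 of the 10 tested were higher in H1299 and 4 lower, against 38.5% and 38.6% of all features. TMEM173, which encodes the DNA-sensing adaptor STING, averaged 2.05 ± 0.309 CPM in A549 and 11.6 ± 0.768 in H1299 (5.64-fold higher), and CGAS, the DNA-sensing enzyme gene, was 2.33-fold higher. MAVS, the adaptor of the RNA sensors, was lower at 274 ± 3.37 against 93.9 ± 0.473 CPM, and MYD88, the adaptor of Toll-like receptors, was lower at 49.1 ± 0.591 against 0.545 ± 0.138. Negative regulators split as well, with SOCS3 at -2.49 and PTPN6 at -8.39 among the lower ones and PTPN2 at 0.86 among the higher ones. PTPN6 passed the expression limit through A549 libraries alone, which made a lower reading in H1299 likely. Of 47 further interferon-induced genes tested, 36 were lower in H1299 and 8 higher, against 38.6% and 38.5% of all features. CXCL10, CXCL11, CCL5, TNFSF10, RTP4, GBP4, GBP5, IDO1 and SLFN11 passed the expression limit through A549 libraries alone. All of these but SLFN11 were called lower, which the filter made likely. CCL5, a chemokine gene for T cells, read 236, 262 and 276 CPM in A549 and at most 0.0907 in H1299, a 5555-fold difference. LAMP3 was the largest exception, at 0.476 ± 0.270 CPM in A549 and 13.4 ± 4.60 in H1299, followed by NMI (3.31-fold) and LAP3 (2.49-fold).

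**Figure D3:**
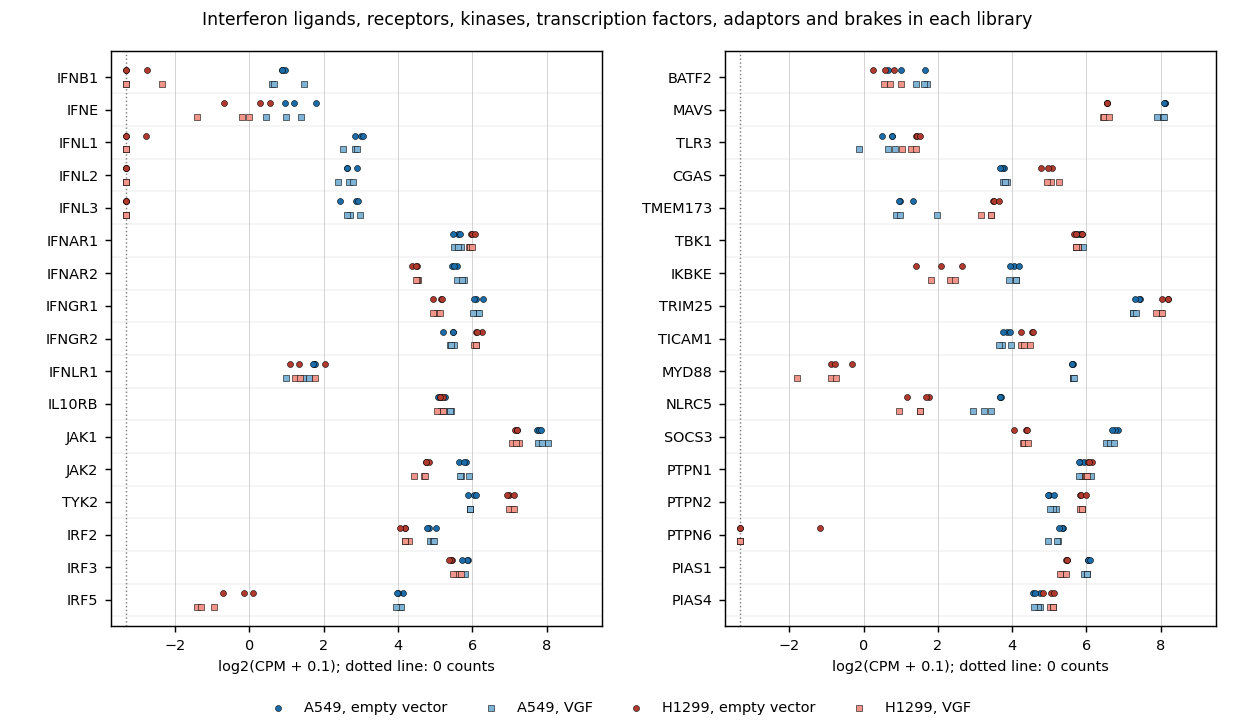
Level of 34 interferon ligands, receptors, kinases, transcription factors, sensing adaptors and negative regulators in each library as log2(CPM + 0.1), 1 marker per library and the 4 groups told apart by colour and shape. With empty vector the receptor chains and kinases differ by between -1.07 and 0.99 on the log2 scale, in both directions. MYD88, PTPN6 and the interferon genes IFNB1 and IFNL1 to IFNL3 lie lower in H1299, and TMEM173 and CGAS lie higher. PTPN6, IFNB1 and IFNL1 to IFNL3 passed the expression limit through A549 libraries alone.

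The second comparison asked what VGF overexpression did in A549. No interferon-stimulated gene was called by edgeR at an adjusted p under 0.05, in a comparison where 0.790% of all features were called in either direction. At an unadjusted p under 0.05, 11 of 46 stood out, against 13.9% of all features. Of the 46 log2 fold changes 30 were negative and 16 positive, with a median of -0.12 against 0 for all features, 47.4% of which were negative. In 7 genes every VGF library was below every control library and in 5 every one was above, compared with 9.08% and 9.28% of all features.

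The genes with the smallest p-values had lower readings with VGF. IRF1 read 55.8, 55.8 and 55.0 CPM with empty vector and 45.3, 42.7 and 43.8 with VGF, without overlap (log2 -0.34, SE 0.08, adjusted p 0.0914). DDX60 read 81.0, 86.1 and 97.2 CPM with empty vector and 73.7, 67.7 and 67.2 with VGF (log2 -0.34, adjusted p 0.123). OASL read 194, 198 and 209 CPM with empty vector and 171, 148 and 155 with VGF (log2 -0.34, adjusted p 0.133). In DDX60 and OASL too, each VGF library was below each control library. ISG20 read 34.0, 34.3 and 34.5 CPM with empty vector and 27.8, 24.2 and 26.4 with VGF (log2 -0.39, adjusted p 0.181). The 4 IFIT genes had log2 fold changes of -0.12 to -0.30, none called.

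Other tests called a few of these genes. DESeq2 called 5 of 46, with 4.0% of all features called: IRF1 (adjusted p 0.00928), OASL (0.000176), DDX60 (0.02) and ISG20 (0.0316) as lower and IFI16 (0.0109) as higher. Limma with voom weights called the same 4 lower genes, with 1.83% of features called, and limma on log2(FPKM + 1) called OASL alone (adjusted p 0.0304), with 1.14%. With the A549 libraries fitted without those of H1299, edgeR called IRF1 (0.0326), OASL (0.0349) and ISG20 (0.0367), with 1.12% of features called. Leaving out H1299 VGF library 3 gave calls for IRF1 (0.0355) and OASL (0.0416), with 66 of 18717 features called higher and 64 lower. The sizes hardly moved between these tests, at -0.34 for IRF1 in each of the 4 that called it.

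**Figure D4:**
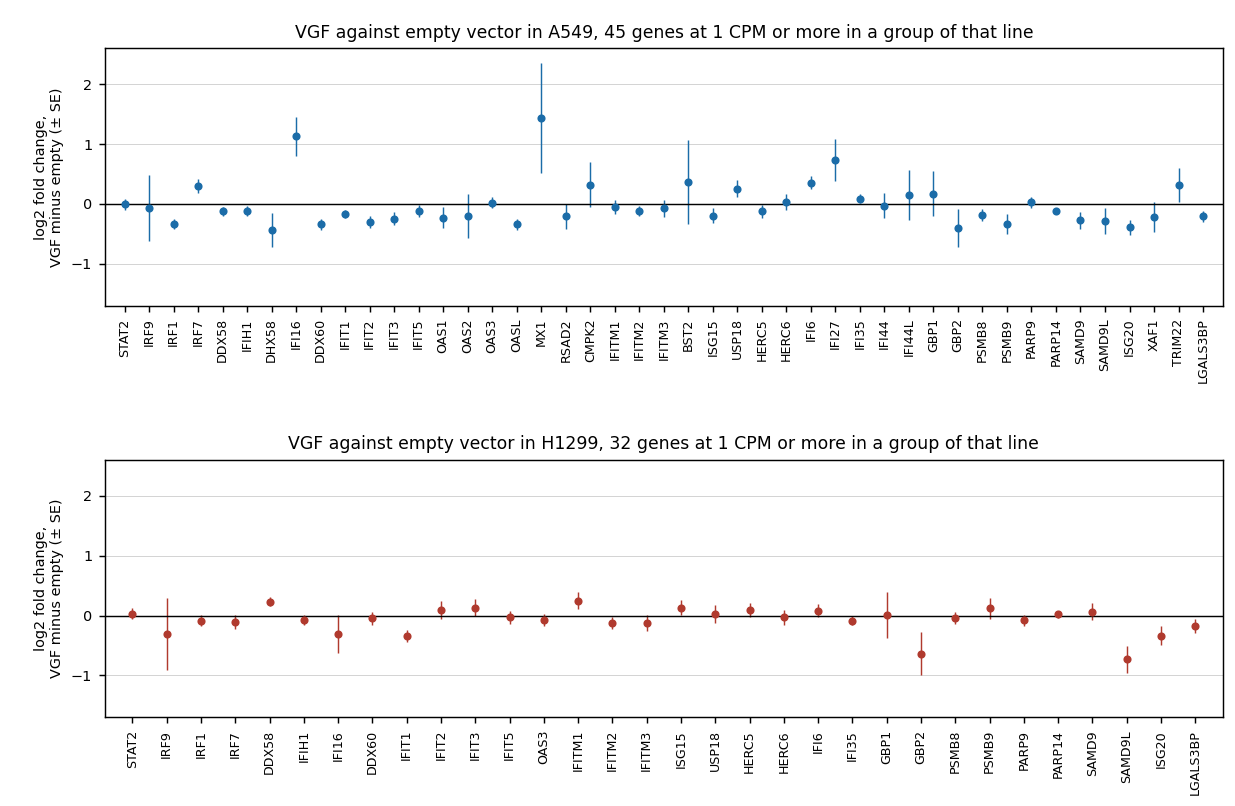
Log2 fold change, VGF minus empty vector, with its SE, for the 45 genes read at 1 CPM or more in a group of A549 (upper panel) and the 32 in H1299 (lower panel). IRF1, DDX60 and OASL lie at -0.34 in A549, IFI16 at 1.13 and MX1 at 1.44 lie highest there, and no gene in either panel was called by edgeR.

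Several of the higher readings in A549 with VGF were highest in the library that stood apart. IFI16 read 6.72, 6.72 and 5.35 CPM with empty vector and 9.20, 23.6 and 8.34 with VGF. All 3 VGF libraries were above the controls, but the second was far above the other 2, and the log2 fold change of 1.13 (SE 0.32, adjusted p 0.135) became 0.48 (adjusted p 0.312) without it. IFI27 read 8.72, 14.1 and 6.85 CPM with VGF against 5.76 to 6.08, at 0.73 with that library and 0.38 without it. MX1 moved from 1.44 to 0.64, BST2 from 0.37 to 0.06 and TRIM22 from 0.31 to -0.09, none of them called either way. In that library 13 of the 47 genes had their highest A549 level, EPSTI1 among them at 0.307 CPM. The share of all features that were highest there was not counted. Of these 13 genes, 5 (IFI16, MX1, BST2, IFI27 and TRIM22) exceeded the next library by more than 1.5-fold. The part of the endothelial markers in these values was not tested. The lower readings moved less: IRF1 was at -0.32 without the library, DDX60 at -0.32, OASL at -0.30 and ISG20 at -0.34.

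**Figure D5:**
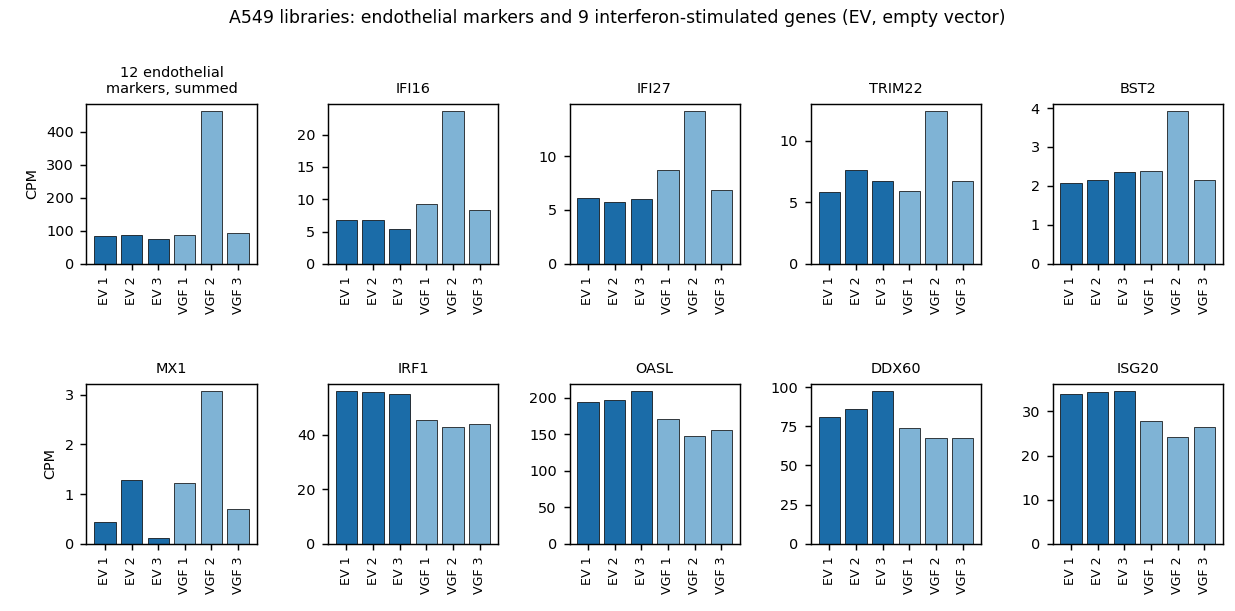
Bars give CPM in each of the 6 A549 libraries (EV, empty vector) for the sum of 12 endothelial markers and for IFI16, IFI27, TRIM22, BST2, MX1, IRF1, OASL, DDX60 and ISG20. The marker sum, at 460.9 CPM, and IFI16, at 23.6 CPM, peak in the second VGF library, whereas IRF1, OASL, DDX60 and ISG20 are lower in all 3 VGF libraries than in all 3 controls.

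IFI6, IRF7 and CMPK2 also had higher readings with VGF, and in these 3 genes the second VGF library was close to at least 1 of the other 2. IFI6 read 23.1, 21.0 and 18.7 CPM with empty vector and 27.6, 26.7 and 25.9 with VGF (log2 0.35, adjusted p 0.155). IRF7 read 11.3, 10.9 and 12.7 CPM with empty vector and 14.6, 14.6 and 13.9 with VGF (log2 0.31, adjusted p 0.267). CMPK2, a nucleotide kinase gene, read 7.89, 7.73 and 9.17 CPM with empty vector and 12.1, 9.58 and 9.41 with VGF (log2 0.32, adjusted p 0.811). None of the 3 was called by edgeR, although the groups did not overlap in any of them. The third control library had the highest A549 level in 19 of the 45 genes with more than 1 CPM in this line, and IFIT2, for example, read 218 CPM there against 172 and 177 in the other controls. How many of all features were highest in that control library was not counted.

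In H1299 VGF overexpression left no interferon-stimulated gene called by edgeR, with 0.0110% of all features called. At an unadjusted p under 0.05 there were 5 of 46, against 7.80% of features. In 3 genes (IFI16, IFIT1 and TRIM22) every VGF library was below every control library and in 2 (DDX58 and IFITM1) every one was above, compared with 7.07% and 5.65% of features. The median log2 fold change was -0.04, against -0.01 for all features.

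TRIM22 had the smallest p-value in H1299, from very few reads. It had 5, 5 and 7 counts with empty vector and 0 in all 3 libraries with VGF, and its adjusted p was 0.142 in edgeR. DESeq2 called it (adjusted p 0.0257), the single gene of the 46 that it called, with 0.763% of features called. IFIT1 read 5.64, 5.40 and 4.86 CPM with empty vector and 4.41, 4.24 and 3.91 with VGF (log2 -0.34, SE 0.10, adjusted p 0.378). SAMD9L, a growth-restraining antiviral gene, read 4.86, 2.77 and 5.27 CPM with empty vector and 2.91, 2.51 and 2.38 with VGF, with overlap (log2 -0.73, adjusted p 0.45). DDX58 read 24.4, 25.0 and 22.9 CPM with empty vector and 30.3, 27.5 and 27.2 with VGF (log2 0.23, adjusted p 0.469).

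The final test asked whether the effect of VGF differed between the lines. By edgeR 0 of 46 genes were called, with 0.159% of all features called, and 5 had an unadjusted p under 0.05, against 11.2% of features. TRIM22 had the smallest adjusted p, at 0.0743, and was called by DESeq2 (adjusted p 0.0105), 1 of 46 where 1.70% of features were called. It was also called by edgeR without A549 VGF library 2 (adjusted p 0.0409), in which TRIM22 read 12.4 CPM and 5.91 and 6.76 in libraries 1 and 3 of that group. Without that library, 18 of 18694 features were called higher and 18 lower. DDX58 differed by 0.35 (SE 0.10, adjusted p 0.248) and IFI16 by -1.44 (adjusted p 0.283), H1299 minus A549. The other pathway genes were not called by edgeR in any of these 3 comparisons. At an unadjusted p under 0.05 there were 10 of 81 in A549, 9 of 81 in H1299 and 7 of 81 when the effects were compared, against 13.9%, 7.80% and 11.2% of all features.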

How the data were processed

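Messenger RNA of 12 libraries was measured. The authors deposited raw counts per feature and FPKM values, which divide counts by feature length and depth. GRCh38 and DESeq2 are named in the submitters' processing notes, without versions. An aligner, a counter, an annotation and a strand setting were not given in the sources used here. From each of the deposited tables, 18 stray lines were left out and 27 symbols were restored by ID. All 19974 Ensembl IDs were found in GENCODE 29, whose GRCh38 coordinates are given.

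Counts were tested in 1 fit of 4 group means over the 12 libraries, by edgeR 4.0.16 (R 4.3.3) with its quasi-likelihood F test, TMM scaling, filterByExpr, which left 18228 of 26535 features, and Benjamini-Hochberg adjustment over these. The threshold for a call was an adjusted p under 0.05. Where no tool is named beside an adjusted p, it is edgeR's. DESeq2 1.42.0, limma 3.58.1 (voom, log2(FPKM + 1), log2(FPKM + 0.1)), other scalings, no filter, a replicate block and leaving out each library were alternatives. Summaries and figures were made with Python 3.11.15, pandas 2.3.3, scipy 1.17.1 and matplotlib 3.10.9. Only the edgeR fit was tested on simulated counts, for VGF in A549 and for the lines with empty vector. TMM factors were 0.919 to 0.940 in A549 and 1.06 to 1.09 in H1299. Shared sequence was counted as 50-base stretches of a gene's exons found in other genes.

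The members and the lists were chosen with earlier results of these data known. Values in every library were given by a rule: members called in a VGF comparison, the 3 with the smallest p in each VGF comparison and in their difference, and the 10 largest called rises and falls between the lines at 5 CPM or more in a group. Other members named with values were chosen after these were seen. Folds are ratios of mean CPM. Where all libraries of a group held 0 counts, 3 counts in the whole group stood in as its floor, and intervals and floors cover counting error only. One pathway gene is not reported here.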

Additional observations from a re-analysis of the deposited data

Results flagged for a closer look

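The effect of the vector on VGF itself, the overexpressed gene, differed between the lines by -5.52 on the log2 scale, H1299 minus A549. The levels behind it are 2.43 ± 0.373 and 1283 ± 80.1 CPM in A549, without and with the VGF vector, and 85.6 ± 7.26 and 980.1 ± 119 CPM in H1299, so the lines differ mainly in the level with empty vector. By edgeR no interferon-stimulated gene was called for a difference in response, where 0.159% of all features were called. At an unadjusted p under 0.05 there were 5 of 46, against 11.2% of all features, and DESeq2 called 1, against 1.70%.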

How the results depend on the processing

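The count of genes called between the lines stayed within 1.5 times its value under every alternative run, and no direction of a called gene reversed. The size depended on the scaling and, for FPKM, on the constant added before the logarithm. With empty vector the median log2 fold change of -2.83 was -2.72 with upper-quartile scaling, -2.62 with library totals alone, -2.88 with voom, -1.29 on log2(FPKM + 1) and -2.49 on log2(FPKM + 0.1), and it ran from -3.05 to -2.71 when single libraries were left out. With VGF the median of -2.999 was -2.79 with library totals alone, -1.11 on log2(FPKM + 1) and -2.37 on log2(FPKM + 0.1), and ran from -3.26 to -2.78 without single libraries. These settings also moved the median of all features with empty vector, to 0.11 (upper quartile), 0.21 (library totals), 0.12 (FPKM + 1) and 0.19 (FPKM + 0.1). With library totals 8155 features were called higher and 6029 lower, against 7024 and 7043. The genes called for VGF in A549 numbered 0 in edgeR, 5 in DESeq2, 4 with voom, 1 on log2(FPKM + 1), 3 with the line fitted alone and 0 to 2 without single libraries. In H1299 DESeq2 called 1 gene and for the difference between the lines 1, and leaving out single libraries gave 0 to 1 for that difference. The cause of these changes was not tested. With the replicate number as a block, 43 and 45 genes were called between the lines and 0 in each VGF comparison, with a median of -2.83 between the lines with empty vector. As deviations from their group means over 11732 features, same-numbered libraries of a line correlated at -0.0883 to 0.0553. Those with different numbers correlated at -0.0608 to 0.104. No pairing by number was seen, although 3 libraries per group cannot exclude one. The few reads of H1299 limit OAS1, OAS2, MX1, CMPK2, BST2 and TRIM22, whose folds there rest on a handful of counts.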
